A study of Mus musculus with 4 samples.

Results

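Cytosolic ribosomal proteins are the protein subunits of the ribosome that translates messenger RNA outside mitochondria. The genes described here were chosen by symbol: those of the large subunit (Rpl genes), of the small subunit (Rps genes, with Rpsa) and of the P-protein stalk (Rplp genes), without entries marked as pseudogenes by a -ps symbol. Of 64 such genes that the array annotation gave a probe set with 1 symbol, 39 reached a log2 level of 6 in at least 1 of the 4 arrays, and these 39 are described. They belonged to 5306 genes at that level among 22180 genes with a probe set of 1 symbol. Of the 39 genes, 25 encode large-subunit proteins, counting the stalk genes Rplp0 and Rplp1, and 14 encode small-subunit proteins.

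The arrays measured RNA of macrophages from the livers of C57/BL6 mice taken 48 h into reperfusion, when blood again flows through a liver that had been cut off from it. There were 10 wild-type (WT) mice and 10 mice with a knockout (KO) of mPGES-1, an enzyme that makes prostaglandin E2 and is encoded by Ptges. The cells of each genotype were divided into a fraction high in Ly6C, a surface protein of recently arrived monocytes, and a fraction low in it. Each of the 4 combinations was hybridised to 1 array from 5 ng of RNA, and the sources used here do not say how many mice stand behind an array.

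Every cell builds ribosomes, and the ribosomal protein genes are among its most transcribed genes. Most of their products are needed in equal numbers per ribosome. The transcripts of most of these genes share a stretch of pyrimidines at the 5′ end, the TOP motif, through which the kinase mTOR regulates their translation. Macrophages and monocytes change their rate of protein synthesis when they are activated, while mature neutrophils are known for a low content of ribosomes.

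The question the 4 arrays allow for these genes is how their levels stood between the Ly6C-hi and Ly6C-low fractions and between the genotypes. With 1 array per group no pairwise difference has an error or a test, and a difference is given as a description of these arrays. The knockout was not visible in its target. The probe set of Ptges read 5.65 (Ly6C-hi) and 5.69 (Ly6C-low) in the WT arrays, and 6.32 and 6.20 in the arrays labelled KO. It was no lower under the KO label, whether or not its probes lie in the deleted part. Odorant and vomeronasal receptor genes, a guide to background, reached 5.31, 5.97, 6.09 and 5.50 in the same array order, with the top 2.5% left out. A probe set that near background in WT could hardly show a loss, so it cannot check the label. Each genotype direction below rests on the label alone. The Ly6C gate was visible in Ly6c2, at 7.70 and 8.94 in the 2 Ly6C-hi arrays against 3.84 and 4.33 in the Ly6C-low arrays.

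The arrays also differed as a whole. The median over the 5306 genes was 6.67 (Ly6C-hi) and 6.36 (Ly6C-low) in the WT arrays and 6.17 and 6.55 in the arrays labelled KO, so each difference is given relative to the median gene and, where it matters, as deposited. The number of genes at log2 6 or more ran from 3066 in labelled KO Ly6C-hi to 4171 in WT Ly6C-hi. Markers of other cell types also moved between arrays. The floor was reached by 10 of 12 neutrophil markers, 14 of 14 of sinusoidal endothelium, 9 of 9 of macrophages and 7 of 10 of hepatocytes. Their summed level (log2 of the sum of linear values) was 13.41, 9.78, 11.41 and 9.12 for neutrophils in the array order of the medians above, and 9.82, 12.58, 9.59 and 13.81 for endothelium. For macrophages it was 12.50, 11.97, 11.96 and 11.73, and for hepatocytes 10.63, 11.57, 10.28 and 11.50. Neutrophil markers were thus highest and endothelial markers low in WT Ly6C-hi, and their part in the ribosomal protein values was not tested. In these bulk samples, fewer cells of a type and less RNA per cell cannot be told apart.

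Ribosomal protein transcripts were lowest in the WT Ly6C-hi array for most members. Their median level was 8.72 (Ly6C-hi) and 9.15 (Ly6C-low) in the WT arrays and 9.06 and 8.99 in the arrays labelled KO, and their summed level was 14.66, 15.05, 14.99 and 15.05 in that order. The WT Ly6C-hi array was the lowest of the 4 for 29 of 39 members in the deposited values (74.4%), against 13.9% of the 5306 genes and 13.6% of 501 other genes with a mean level of 8 or more. It was the lowest for 38.7% of 62 other genes with a mean of 10 or more, a level that 11 members reached. The other 3 arrays were each highest for some members, with 15 in WT Ly6C-low, 11 in labelled KO Ly6C-hi and 10 in labelled KO Ly6C-low. Across the arrays the members varied little: the median range between the lowest and the highest array was 0.47, against 0.96 over all genes used, and 38 of 39 members stayed within a range of 1, against 53.1% of all genes used. The exception was Rplp1. A small range was not particular to the members. The share within a range of 1 was 58.9% of the 501 other genes and 80.6% of the 62 with a mean of 10 or more. In the lists described below it was 94.4% of 18 ribosome biogenesis factors and 90.0% of 10 elongation and termination factors. It was 87.0% of 23 initiation factors and 86.4% of 22 mitochondrial ribosomal proteins.

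**Figure D1:**
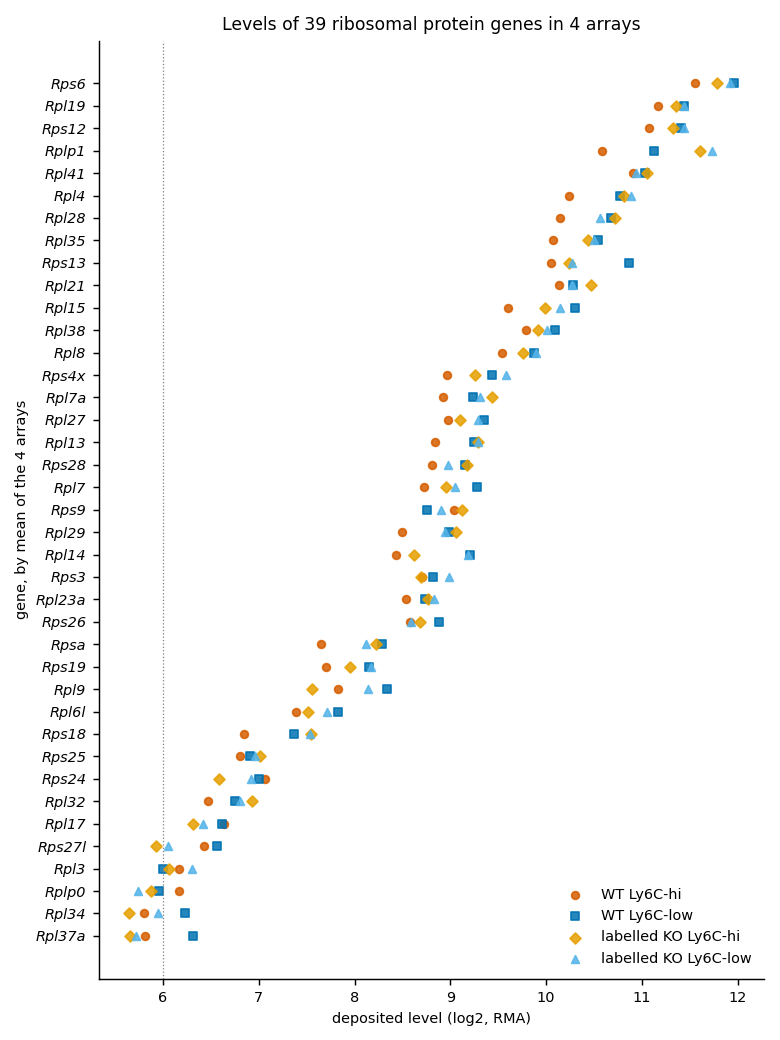
Deposited log2 level (x axis) of the 39 ribosomal protein genes (y axis, ordered by mean over the arrays) in the 4 arrays, with 1 point per array, no error bars since each group is 1 array, and a dotted line at the log2 floor of 6. The WT Ly6C-hi points lie leftmost for 29 of the 39 genes, and the order of genes reflects probe sets and is not an order of abundance.

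Levels below are given in the order WT Ly6C-hi, WT Ly6C-low, labelled KO Ly6C-hi and labelled KO Ly6C-low, as deposited log2 values of 1 probe set. Rps6, the small-subunit protein phosphorylated by S6 kinase and the member with the highest mean level, read 11.56, 11.96, 11.79 and 11.92. Its lowest value was in WT Ly6C-hi, and the other 3 arrays lay close together. Rpl19, a large-subunit protein, read 11.17, 11.44, 11.36 and 11.44, and Rps12 of the small subunit followed the same order at 11.08, 11.41, 11.32 and 11.45. Rpl41, the smallest ribosomal protein, was nearly level, at 10.91, 11.03, 11.05 and 10.94, with the smallest range of the 39 genes at 0.15.

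The stalk recruits elongation factors to the ribosome and is formed by Rplp0 as the base with Rplp1 and Rplp2. Rplp1 read 10.58, 11.13, 11.60 and 11.73. Both arrays labelled KO were above both WT arrays for this gene, and its range of 1.15 was the largest of the members. A second probe set of Rplp1 gave 5.93, 6.55, 5.83 and 5.80, where only WT Ly6C-low stood out, so the genotype order of Rplp1 rests on 1 probe set. Rplp0 was near the floor at 6.16, 5.96, 5.88 and 5.74, with WT Ly6C-hi as its highest array. Rplp2 did not reach the floor and lay between 3.31 and 3.88.

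Among the small-subunit proteins, Rps13 had the widest gap between the fractions in WT, at 10.06, 10.87, 10.24 and 10.27. The WT Ly6C-low array alone was high for this gene. Rps18, in the head of the subunit, read 6.85, 7.37, 7.55 and 7.53, with WT Ly6C-hi low and the 2 arrays labelled KO nearly equal. Rps19, the gene most often mutated in Diamond-Blackfan anaemia, an inherited failure of red cell production, read 7.70, 8.15, 7.96 and 8.17. Rpsa, which is also known as the precursor of a laminin receptor, read 7.65, 8.29, 8.23 and 8.12. In both, WT Ly6C-hi was the lowest array. Rps3, which sits at the entry of the messenger RNA channel and has also been described as a partner of NF-kB, differed less, at 8.71, 8.82, 8.69 and 8.99. Rps9 went the other way between the WT fractions, at 9.04, 8.75, 9.12 and 8.90, and both Ly6C-hi arrays were above both Ly6C-low arrays. Rps28 read 8.81, 9.15, 9.18 and 8.98. Rps24 was lowest in labelled KO Ly6C-hi instead, at 7.07, 7.003, 6.58 and 6.92.

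Among the large-subunit proteins, Rpl14 followed the Ly6C fraction under both genotype labels, at 8.43, 9.20, 8.62 and 9.19. Both Ly6C-hi arrays were below both Ly6C-low arrays. Rpl9 did the same at 7.83, 8.34, 7.55 and 8.14. As deposited, this was not particular to Rpl14 and Rpl9: it also held for other members, among them Rps6, Rpl19, Rps12 and Rps19. Relative to the median gene, Rpl14 and Rpl9 were the only members whose difference between the fractions was below 0 under both labels. The value under the KO label was -0.19 for Rpl14 and -0.20 for Rpl9. Rpl15, an early part of the assembling large subunit, read 9.60, 10.31, 9.98 and 10.15. Rpl4, whose protein lines the exit tunnel for the growing chain, read 10.24, 10.77, 10.82 and 10.89, and Rpl28 read 10.14, 10.68, 10.72 and 10.56. In all of these but Rpl9, WT Ly6C-hi was the lowest array. Rpl38, a subunit needed in mouse embryos for the translation of Hox transcripts, read 9.79, 10.09, 9.92 and 10.01. Rpl21 was highest in labelled KO Ly6C-hi, at 10.14, 10.28, 10.47 and 10.28, and Rpl3, which reaches towards the peptidyl transferase centre, stayed between 6.002 and 6.30 in all arrays. The dimmest members, Rpl37a at 5.81, 6.31, 5.65 and 5.72 and Rpl34 at 5.80, 6.22, 5.65 and 5.94, were above 6 in WT Ly6C-low only. Rpl17 read 6.64, 6.62, 6.31 and 6.42.

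Paralogues with restricted expression were mostly under the floor. Rps27l, a paralogue of Rps27 that p53 induces, read 6.42, 6.56, 5.92 and 6.05, with both WT arrays above both arrays labelled KO, while Rps27 itself lay between 4.26 and 4.65. Rps4x, encoded on the X chromosome, read 8.96, 9.44, 9.26 and 9.58. The muscle paralogue Rpl3l lay between 4.37 and 4.91, Rpl39l between 4.63 and 5.01 and Rpl10l, a testis paralogue, between 1.90 and 2.30. The transcribed pseudogene Rps4l lay between 4.35 and 5.20, and Rpl6l, a member by its symbol although the annotation types it as a pseudogene, read 7.39, 7.83, 7.51 and 7.71.

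A low reading cannot be taken as a low transcript here. Among the 25 ribosomal protein genes under the floor were subunits of every ribosome, such as Rps16, Rps15 and Rpl30, whose highest values were 3.44, 3.32 and 3.03. Rpl5 and Rpl11, the pair that binds 5S RNA and can inhibit Mdm2, lay between 4.17 and 4.61 and between 4.23 and 4.46, Rpl22 between 3.84 and 4.42 and Rpl39 between 3.87 and 5.03. Genes of odorant and vomeronasal receptors, which macrophages are not known to use, reached 5.31, 5.97, 6.09 and 5.50 in the 4 arrays once the top 2.5% were left out, above most of these values. Just outside the floor were Rps7, with a highest value of 5.76, and Rpl6, with 5.97. Just inside were Rplp0, with 6.16, and Rpl34, with 6.22. Of the 39 members, 35 were at the floor in all arrays, Rps27l in 3, Rplp0 only in WT Ly6C-hi, and Rpl34 and Rpl37a only in WT Ly6C-low, so for the last 3 the floor itself favours a difference that is high in that array. A further 12 symbols, among them Rpl10 and Rpl13a, appeared only on probe sets shared by several symbols and were not used. Ribosomal protein genes have many near-identical processed copies in the genome, so a probe set of 1 symbol may still collect signal from copies, and the values are uncertain to that degree.

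The promoters of members at the extremes are shown because transcripts of this family are defined by the bases around their start. Of the 39 genes, 29 were found in the RefSeq promoter table (GRCm38.p6), with 35 promoters between them. Rpl17, Rpl21, Rpl23a, Rpl29, Rpl3, Rpl32, Rpl6l, Rpl7, Rpl8 and Rplp1 had no entry. Each stretch runs from 40 bases before the annotated start to 20 bases from it on, 5′ to 3′ on the strand of the gene, and capitals mark the longest run of C and T that touches the 5 bases on either side of the start. Rps6 and Rpl4 stand for the bright members, Rpl14 and Rpl15 for the members lowest in WT Ly6C-hi against WT Ly6C-low together with Rps13, Rps18 and Rpl28 for those highest under the KO label in the Ly6C-hi fraction, and Rplp0 for the members highest in WT Ly6C-hi.
Rps6, chr4:86857348-86857407, minus strand: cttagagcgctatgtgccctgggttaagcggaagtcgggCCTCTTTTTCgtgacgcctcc
Rpl4, chr9:64173347-64173406, plus strand: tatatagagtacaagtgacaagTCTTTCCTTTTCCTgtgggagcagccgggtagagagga
Rpl14, chr9:120571477-120571536, plus strand: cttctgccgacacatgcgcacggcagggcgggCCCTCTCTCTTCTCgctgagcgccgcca
Rpl15, chr14:18270967-18271026, minus strand: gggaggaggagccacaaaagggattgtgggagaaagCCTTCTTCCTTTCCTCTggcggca
Rps13, chr7:116334171-116334230, minus strand: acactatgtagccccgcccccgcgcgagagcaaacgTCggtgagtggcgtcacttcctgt
Rps18, chr17:33955646-33955705, minus strand: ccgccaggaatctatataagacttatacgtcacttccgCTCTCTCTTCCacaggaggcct
Rpl28, chr7:4792925-4792984, plus strand: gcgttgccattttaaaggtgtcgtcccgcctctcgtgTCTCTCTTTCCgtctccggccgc
Rplp0, chr5:115559427-115559486, plus strand: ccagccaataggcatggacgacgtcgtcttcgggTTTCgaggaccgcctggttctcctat

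A run of 8 or more pyrimidines touched the start in 15 of the 35 member promoters (42.9%), against 9.72% of the 32851 promoters in the table and 10.0% of those of the other genes used. Among ribosomal protein genes under the floor it did so in 5 of 23 promoters (21.7%). In the stretches above, the run is 14 bases long in Rpl14 and Rpl4, 17 in Rpl15, 11 in Rps18 and Rpl28 and 10 in Rps6, while at the annotated starts of Rps13 and Rplp0 it is 2 and 4. An annotated start can differ from the one used in these cells, so a short run says only that these letters are not at that position. The letters CCGGAAG, the core bound by ETS factors, were in 34.3% of member promoters on either strand over the 300 bases of the table, against 8.86% of all promoters and 17.0% of those of the other genes used. Among ribosomal protein genes under the floor they were in 43.5%. AAGATGG, the core bound by YY1, was in 5.71% of member promoters against 6.34% of all and 7.05% of those of the other genes used, and TATAAA was in 5.71% against 13.6% and 8.09%. The reverse complement of CCGGAAG holds pyrimidines and can overlap such a run.

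The array values were set beside the run. The 15 genes with a run of 8 or more had a median difference between the WT fractions of -0.72 (SD 0.27 over genes) relative to the median gene, and the 14 genes without one had -0.70 (SD 0.26). For labelled KO against WT in the Ly6C-hi fraction the medians were 0.69 (SD 0.36) and 0.70 (SD 0.26). No test was made of the difference between these gene groups.

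In WT, the Ly6C-hi fraction was compared with the Ly6C-low fraction. The median member was -0.68 in Ly6C-hi relative to the median gene (SD 0.26 over the 39 genes), with all 39 members below 0, against a median of -0.10 and an SD of 0.997 over all genes used. As deposited the median was -0.37 and 34 of 39 were below 0. Of the 5306 genes used, 2913 were below 0 relative to the median gene, and 2068 as deposited. The lowest members were Rps13 at -1.12, Rpl14 at -1.08 and Rpl15 at -1.02, and the members nearest to 0 were Rps9 at -0.03, Rplp0 at -0.11 and Rpl3 at -0.15. At 2-fold or more, 3 members were lower, where 12.6% of all genes used were, and 0 were higher, where 11.9% were. The members were thus no more often 2-fold apart than other genes, and they stood close together on 1 side.

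Under the KO label the same comparison of fractions gave small differences. The median was 0.29 relative to the median gene (SD 0.19), with 37 of 39 members above 0, where 2907 of the 5306 genes were. As deposited it was -0.09, with 25 of 39 below 0, where 3608 of the 5306 genes were. Its direction thus depends on the scaling. The highest members were Rps9 at 0.60, Rps28 at 0.58 and Rpl21 at 0.57. No member was 2-fold higher, where 10.7% of all genes used were, or 2-fold lower, where 11.0% were.

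Labelled KO was then compared with WT within the Ly6C-hi fraction. The median member was 0.72 higher relative to the median gene (SD 0.32), with all 39 above 0, and 0.22 as deposited, with 30 of 39 above 0, against medians of 0.04 and -0.47 over all genes used. Of the 5306 genes used, 2805 were above 0 relative to the median gene, and 1070 as deposited. With each array centred on all 22180 genes instead, the median of the same 39 members was 0.065, and it was -0.017 once the 25 genes below the floor were also counted as members. The highest members were Rplp1 at 1.52, Rps18 at 1.20 and Rpl28 at 1.08, and the lowest were Rps27l at 0.00, Rps24 at 0.02 and Rpl17 at 0.18. At 2-fold or more, 7 members were higher (Rplp1, Rps18, Rpl28, Rpsa, Rpl4, Rpl29 and Rpl7a), where 6.28% of all genes used were, and 0 were lower, where 5.80% were. As deposited, only Rplp1 was 2-fold higher, and the share over all genes is given for the centred values only. This comparison and that of the WT fractions share the WT Ly6C-hi array, which was the lowest for most members, and they are not independent of each other.

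Within the Ly6C-low fraction, labelled KO was close to WT. The median member was -0.24 relative to the median gene (SD 0.22), with 37 of 39 below 0, and -0.04 as deposited, with 23 of 39 below 0. Over the 5306 genes, 2977 were below 0 relative to the median gene, and 2000 as deposited. The lowest were Rps13 at -0.79, Rpl37a at -0.78 and Rps27l at -0.70, and the highest was Rplp1 at 0.41. Rpl37a had reached the floor only through the WT Ly6C-low array, so the floor favours a low value here. No member was 2-fold higher, where 3.94% of all genes used were, or 2-fold lower, where 1.88% were.

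**Figure D2:**
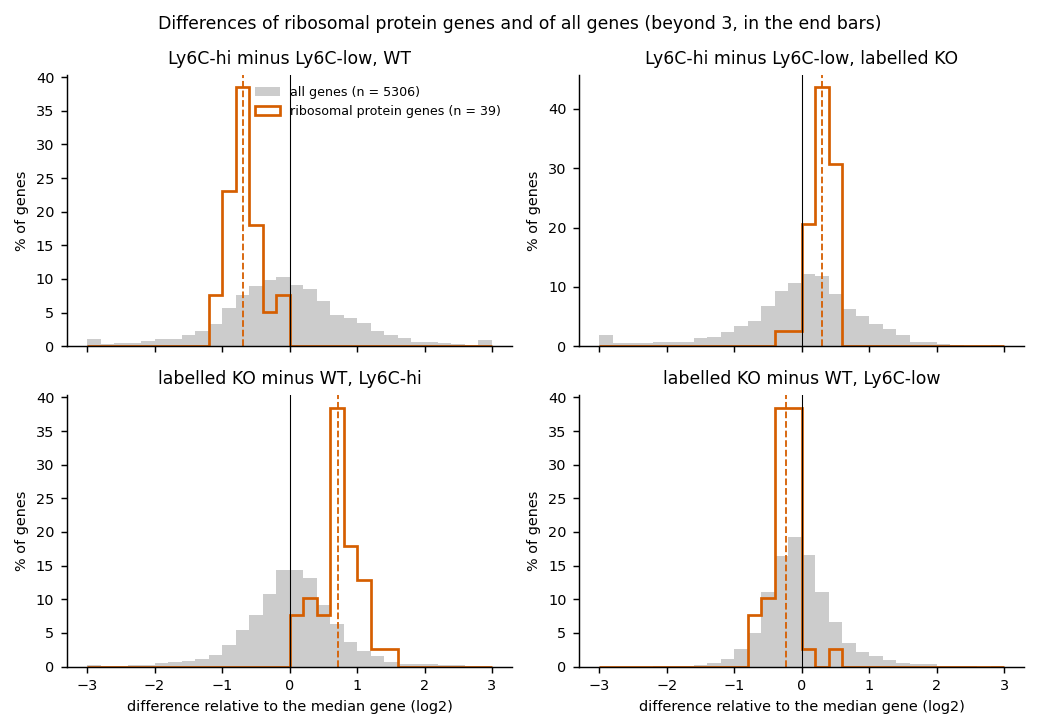
Percent of genes (y axis) by difference in log2 level relative to the median gene (x axis) in the 4 pairwise comparisons, for all 5306 genes used (grey bars) and for the 39 ribosomal protein genes (orange outline, dashed line at their median). The members form a narrow group at -0.68 for the WT fractions and at 0.72 for labelled KO against WT in the Ly6C-hi fraction, and lie nearer to 0 at 0.29 and -0.24 in the other comparisons.

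The difference between the fractions was thus set side by side for the genotype labels. Between the labels it differed by 0.94 for the median member (SD 0.28), with 39 of 39 above 0, and by 0.24 as deposited, with 32 of 39 above 0. Over the 5306 genes, 2750 were above 0 relative to the median gene, and 920 as deposited. Relative to the median gene, 37 of 39 members were below it in WT Ly6C-hi against Ly6C-low and above it under the KO label, where 21.7% of all genes used were. As deposited, 12 of 39 had these opposite signs, where 6.78% of all genes used had. With each array centred on all 22180 genes, the difference of differences of the median member was 0.033. The largest differences of differences were those of Rps13 at 1.48, Rpsa at 1.44 and Rpl28 at 1.39, and the smallest were those of Rpl3 at 0.29, Rps24 at 0.30 and Rps3 at 0.50.

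Large- and small-subunit genes lay close together in these values. The medians relative to the median gene were -0.73 over 25 large-subunit and -0.65 over 14 small-subunit members between the WT fractions, 0.29 and 0.31 between the fractions under the KO label, and 0.72 in both for the genotype labels in Ly6C-hi. The gaps were not tested, and the SD over genes within a subunit ran from 0.19 to 0.33 in those comparisons. The WT Ly6C-hi array was the lowest for 19 of 25 and 10 of 14 members.

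Averaged over both genotype labels, the Ly6C fraction gave no called member in limma's additive model, against 9.33% of the 5306 genes at a Benjamini-Hochberg adjusted p under 0.05, and 0 of 39 members had an unadjusted p under 0.05, against 25.7% of all genes used. The lowest adjusted p in limma was 0.356, for Rpl14, at -0.64 in Ly6C-hi (SE 0.38). Averaged over both fractions, the genotype label gave 0.00% called genes, with 0 members at an unadjusted p under 0.05, against 5.58% of all genes used. The lowest adjusted p in limma was 0.949, for Rps18 at 0.59, and Rplp1 had an estimate of 0.97 with an adjusted p of 0.950. With quantile normalisation limma called 1 member by genotype label, Rplp1, at 1.01 with an adjusted p of 0.0445, where it called 0.716% of all genes used. The second probe set of Rplp1, given above, does not show that order of genotype labels. The model has 1 residual degree of freedom and takes the difference between the labels in the fraction effect as noise, so a value that sets 1 array apart counts towards its error.

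Members with several probe sets allowed a comparison between them. There were 23 such genes, with up to 8 probe sets for Rps12, but several of these held identical values. Of 32 other probe sets with values of their own, 27 were below the median gene between the WT fractions, 32 above it between the fractions under the KO label, 29 above it for labelled KO against WT in Ly6C-hi and 29 below it in Ly6C-low. In these comparisons the array medians of all 22180 genes, most under the floor, differed by -0.11, 0.09, 0.15 and -0.055. Those of the 5306 genes used differed by 0.31, -0.38, -0.50 and 0.19. Dim probe sets thus tend to these sides of the median gene, so the counts cannot show agreement with the members. Their median was -0.46 between the WT fractions and 0.46 for the genotype label in Ly6C-hi. Over the 15 of them that reached the floor, on 10 genes, it was -0.68 and 0.78. The used probe set of Rps24 differed from the others: it gave -0.25 between the WT fractions, and the other probe sets gave -1.04 and -0.82. The second probe set of Rps9 gave 0.12 between the WT fractions and -0.26 for the genotype label in Ly6C-hi, where the used one gave -0.03 and 0.58.

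The differences were set against the level of the probe sets, since bright and dim probe sets can respond differently to the same sample. Over 26 members with a mean level of 8 or more the medians were -0.70 between the WT fractions and 0.74 for labelled KO against WT in Ly6C-hi, and over 501 other genes at such levels they were -0.15 and 0.08. At a mean of 10 or more, 11 members gave -0.78 and 0.84, and 62 other genes gave -0.39 and 0.49. Relative to the median gene, the other bright genes thus lay on the same side as the members, at a smaller size. As deposited, the 501 other genes gave 0.16 and -0.42, the opposite side from the 26 members at -0.39 and 0.24. The 62 other genes gave -0.08 and -0.01 as deposited, and the 11 members -0.47 and 0.33. Between the fractions under the KO label, members and other genes were close relative to the median gene, at 0.31 and 0.40 for means of 10 or more. Across members, Spearman's rho between mean level and difference was -0.28 for the WT fractions and 0.51 for the genotype label in Ly6C-hi, over 39 genes that share the same 4 arrays.

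The odorant and vomeronasal receptor genes differed between the arrays as well. Over all 1373 of them the median level was 2.46, 2.77, 2.86 and 2.61 in the array order used above, and as deposited the median difference was -0.24 between the WT fractions, 0.22 between the fractions under the KO label and 0.33 for labelled KO against WT in Ly6C-hi. WT Ly6C-hi was thus their lowest array too. The 45 of them at the floor had larger values, at -0.92, 0.91 and 1.15 as deposited, but they passed the floor mostly through the arrays in which they are high, so their size and side are partly fixed by that choice. Whether what moved these probe sets also moved those of the ribosomal proteins was not tested. The neutrophil markers, too, were highest in WT Ly6C-hi, where most members were lowest, and their part was not tested.

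**Figure D3:**
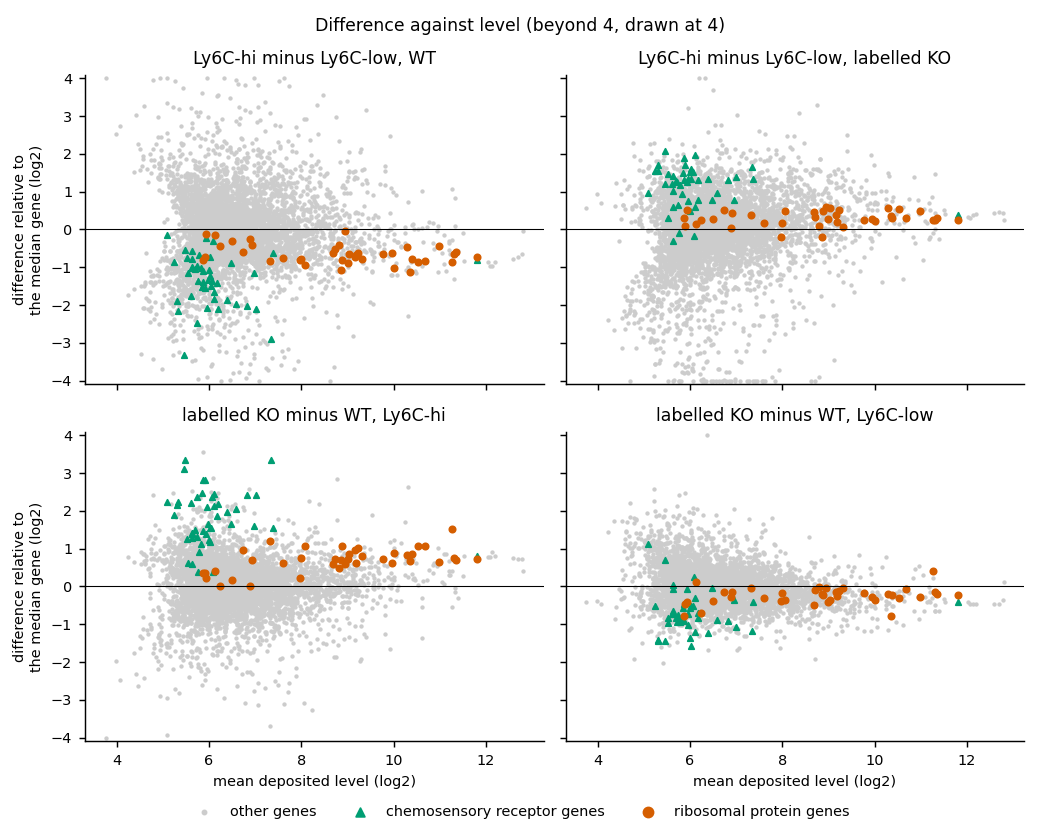
Difference in log2 level relative to the median gene (y axis, values beyond 4 drawn at 4) against the mean deposited log2 level (x axis) in the 4 comparisons, for ribosomal protein genes (orange circles), chemosensory receptor genes (green triangles) and other genes (grey). Ribosomal protein genes lie below 0 between the WT fractions and above 0 for labelled KO against WT in Ly6C-hi at all levels. The chemosensory genes drawn are the 45 at the floor, whose side is partly fixed by the floor.

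The rest of the translation machinery was compared through lists of genes by function. Of 10 elongation and termination factors used, the median was -0.61 between the WT fractions, 0.37 between the fractions under the KO label and 0.56 for labelled KO against WT in Ly6C-hi, and WT Ly6C-hi was the lowest array for 4 of 10. Eef1a1, which brings aminoacyl-tRNA to the ribosome, read 11.25, 11.76, 11.55 and 11.53, and Eef2, which moves the ribosome along the messenger, read 9.09, 9.32, 9.47 and 9.52. Both were lowest in WT Ly6C-hi, like most ribosomal protein genes. Eef1b2 and Naca followed them, at 7.64, 7.94, 8.08 and 7.999 for the first and 6.74, 7.03, 7.06 and 6.93 for the second. Eef1g was lower in both Ly6C-hi arrays than in both Ly6C-low arrays, at 6.51, 7.27, 6.51 and 7.15, and so was the termination factor gene Gspt1 at 6.16, 6.65, 5.98 and 6.45. Etf1, its partner in termination, went the other way between the WT fractions, at 8.54, 7.14, 7.59 and 7.32.

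Of 23 initiation factors the medians of the same comparisons were -0.23, 0.17 and 0.31, and WT Ly6C-hi was lowest for 4 of 23. Eif5 read 8.80, 7.75, 8.43 and 7.65, with both Ly6C-hi arrays above both Ly6C-low arrays, and so did the helicase gene Eif4a1 at 8.53, 8.20, 8.93 and 7.97. Eif5b, which joins the subunits, was low in labelled KO Ly6C-hi alone, at 6.62, 6.62, 5.10 and 6.39. Both arrays labelled KO were above both WT arrays for Eif3f, at 6.95, 7.03, 7.44 and 7.62. Pabpc1, the poly(A)-binding protein, was lowest in WT Ly6C-low, at 6.51, 5.99, 6.77 and 6.37.

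Of 18 ribosome biogenesis factors the medians were -0.24, 0.26 and 0.31. Npm1, the nucleolar protein nucleophosmin, read 9.69, 10.59, 10.06 and 9.92, and it was high in WT Ly6C-low alone, as Rps13 was. Polr1a, the large subunit of RNA polymerase I, was higher in both Ly6C-hi arrays, at 6.11, 5.16, 5.59 and 5.12. Sbds, which helps to release the mature large subunit, was low in labelled KO Ly6C-hi alone, at 6.41, 6.28, 5.57 and 6.66. For Ltv1, at 7.36, 6.93, 6.64 and 6.56, and for Gnl3, at 6.72, 6.59, 6.14 and 6.29, both WT arrays were above both arrays labelled KO. Nop56, of the RNA-methylating complex, read 6.84, 7.02, 7.26 and 6.97.

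Of 22 mitochondrial ribosomal proteins, which build a separate ribosome, the medians were -0.64, 0.00 and 0.31. As deposited, all 22 were below 0 between the fractions under the KO label, where 25 of 39 cytosolic members and 3608 of the 5306 genes used were. Mrpl42 read 6.28, 6.67, 5.34 and 6.60, lowest in labelled KO Ly6C-hi. Mrpl3 at 5.80, 6.35, 5.67 and 6.56 and Mrps5 at 5.77, 6.18, 5.11 and 6.04 were lower in both Ly6C-hi arrays than in both Ly6C-low arrays, and so was Mrpl2, at 5.99, 6.42, 6.02 and 6.61. Mrps15 read 6.84, 6.71, 6.03 and 6.54.

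Of 14 regulators of ribosome production and ribosome stress, the medians were 0.17, 0.22 and 0.21, so between the WT fractions they lay on the other side from the members. Atf4, a transcription factor of the stress response to amino acid loss, read 9.84, 8.91, 9.64 and 9.002, and its target Ddit3 read 8.40, 7.13, 7.56 and 6.9996. Mdm2, the p53 ligase that free Rpl5 and Rpl11 inhibit, read 7.15, 6.09, 6.89 and 5.66. In all 3 both Ly6C-hi arrays were above both Ly6C-low arrays. Rheb, the activator of mTOR, was low in labelled KO Ly6C-hi alone, at 6.68, 6.25, 5.19 and 6.27, while Mtor itself read 5.86, 5.64, 5.94 and 6.39. Gcn1, a sensor of collided ribosomes, was lowest in WT Ly6C-hi, at 6.62, 7.10, 7.32 and 7.07. In limma's additive model 0 genes of these 5 lists were called for the Ly6C fraction or for the genotype label. At an unadjusted p under 0.05 there were 2 regulators and 1 gene each of the initiation, elongation and mitochondrial lists for the fraction, each a smaller share of its list than the 25.7% over all genes used, and 0 genes for the label.

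**Figure D4:**
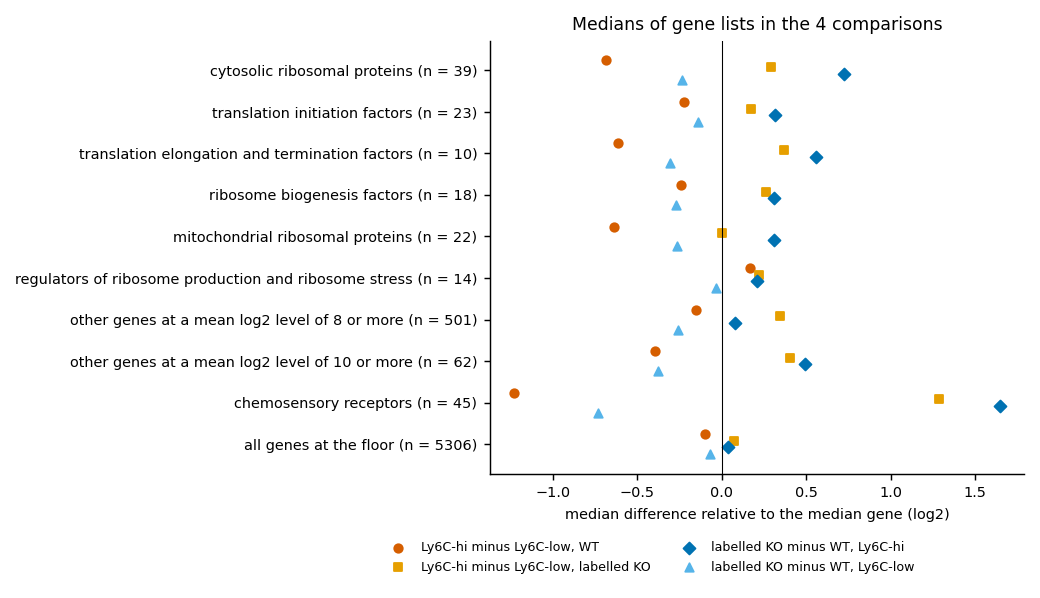
Median difference in log2 level relative to the median gene (x axis) of each gene list (y axis, with its number of genes) in the 4 comparisons (colours and shapes), without error bars since each group is 1 array. Between the WT fractions, cytosolic and mitochondrial ribosomal proteins and elongation factors lie at -0.68, -0.64 and -0.61, and initiation and biogenesis factors at -0.23 and -0.24. Chemosensory receptor genes lie at -1.23, a side partly fixed by the floor.

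Ribosomal protein genes with symbols outside the rule gave a divided picture. Rps3a1, of the small subunit, read 10.14, 10.61, 10.38 and 10.57, lowest in WT Ly6C-hi. Fau, which encodes Rps30 as a fusion to a ubiquitin-like protein, read 10.10, 9.81, 9.86 and 9.69 and was highest there.

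The scaling decided how far the members stood apart and, in the comparisons of the fractions under the KO label and of the genotype labels in Ly6C-low, on which side of 0. Between the WT fractions the median stayed below 0 under each scaling tried, from -0.78 with a log2 floor of 7 to -0.19 with no level floor. For labelled KO against WT in Ly6C-hi it ran from 0.83 with a floor of 7 to -0.017 with no floor. The last setting both centres on all 22180 genes and adds the 25 dim genes, and the centring alone moved each member by -0.66. In this comparison the median was 0.43 with lowess and 0.50 with quantile normalisation. The WT Ly6C-hi array was the lowest for 29 of 39 members with quantile normalisation and for 34 of 39 with lowess or centring. With no level floor it was the lowest for 27 of 64. The share over all genes, 13.9%, is given for the deposited values only.

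**Figure D5:**
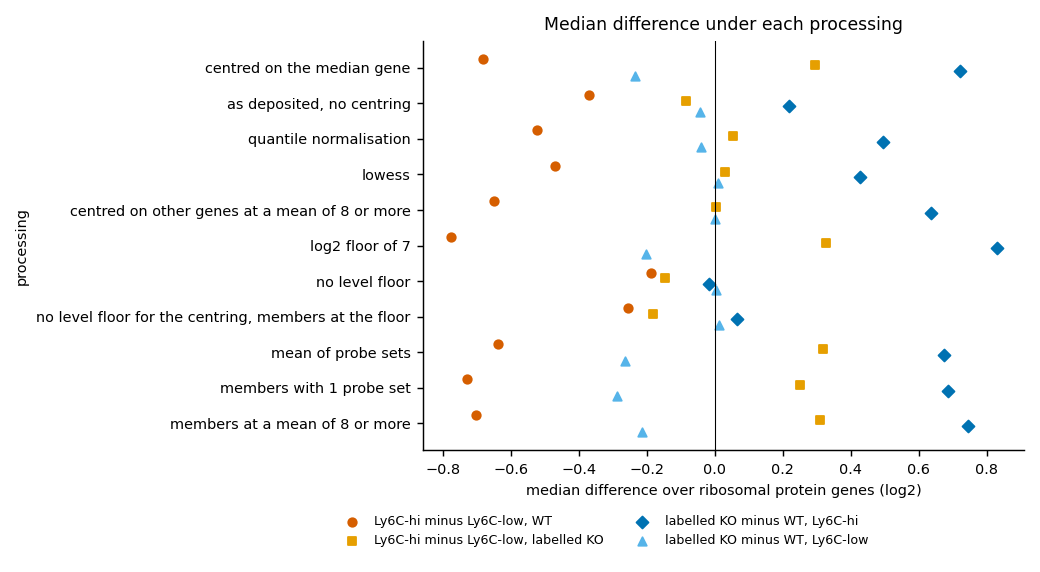
Median difference in log2 level over ribosomal protein genes (x axis) under each processing (y axis) in the 4 comparisons (colours and shapes). The WT fractions lie left of 0 in each, the genotype label in Ly6C-hi lies right of 0 except at -0.017 with no level floor, and the other comparisons lie on either side of 0.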

How the data were processed

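The authors deposited log2 values per probe set made with RMA in Expression Console, per the labels. RMA is generally known to correct background, quantile normalise and summarise probes. The sources used here give no software version or annotation build. Of 41345 probe sets, 23521 carried 1 symbol in the platform annotation and were used, 1814 carried several and 16010 none. Current symbols came from RefSeq (GRCm38.p6) by Entrez ID for 23328. Each gene was represented by its brightest probe set (by 4-array mean), and genes under log2 6 in every array were left out.

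Each array was centred on its median over the 5306 genes. Pairwise differences have no test. limma 3.58.1 in R 4.3.3 fitted fraction and genotype label additively (eBayes with trend, Benjamini-Hochberg) and was tested on simulated data. Tables and plots used Python 3.11.15. Arrays number 1 per group, which limits precision, and p-values cover the spread between these arrays alone. The members and lists were chosen with earlier results of these data known.

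Named members were, per comparison, the 3 highest and 3 lowest by centred difference, the 5 brightest and 5 dimmest, and stalk genes, paralogues and subunits with described roles outside the ribosome. From each list of the translation machinery and its regulators the 3 genes with the largest averaged effect of each factor were named. Cell type markers are given as summed levels, without gene names. Markers of lymphocytes, with 3 of 12 at the floor, and of the cell cycle, with 1 of 10, are not described. Eef1a1, Rps15, Rps16 and Rpl30 were named after their values were seen. Alternatives were the deposited scale, quantile normalisation, lowess, a floor of 7, no floor, the mean of probe sets, no trend, 1 factor alone, and others named in the closing section.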

Additional observations from a re-analysis of the deposited data

Results flagged for a closer look

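The difference between the Ly6C fractions had opposite signs under the genotype labels for the median ribosomal protein gene, at -0.68 in WT and 0.29 under the KO label relative to the median gene. The median difference between these differences was 0.94. It was not tested, since each group is 1 array, and the sign under the KO label turns to -0.086 in the deposited values. The 0.94 fell to 0.24 as deposited and to 0.46 with lowess, and it was 0.033 with the arrays centred on all 22180 genes and -0.0008 with no floor.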

How the results depend on the processing

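No paired analysis was possible because each group is 1 array and the labels carry no replicate numbers. Medians over members are given in the order Ly6C-hi minus Ly6C-low in WT, the same under the KO label, labelled KO minus WT in Ly6C-hi, the same in Ly6C-low, and the difference of differences. Centred on the median gene they were -0.68, 0.29, 0.72, -0.24 and 0.94. They were -0.37, -0.086, 0.22, -0.044 and 0.24 as deposited, -0.52, 0.053, 0.50, -0.039 and 0.52 with quantile normalisation, and -0.47, 0.029, 0.43, 0.011 and 0.46 with lowess. With a floor of 7 they were -0.78, 0.33, 0.83, -0.20 and 1.04 over 32 members, and with no floor -0.19, -0.15, -0.017, 0.0037 and -0.0008 over 64. With the arrays centred on all 22180 genes as there but over the same 39 members, added later, they were -0.25, -0.18, 0.065, 0.011 and 0.033. Added after seeing the data, centring on other genes at a mean of 8 or more gave -0.65, 0.0048, 0.64, 0.0009 and 0.61, and members at such a mean gave a difference of differences of 1.06. Members with 1 probe set, also added, gave -0.73, 0.25, 0.69, -0.29 and 0.90.

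Members 2-fold higher under the KO label in Ly6C-hi, 7 when centred, numbered 1 as deposited and with lowess, 2 with quantile normalisation, the mean of probe sets or the added centring, and 0 with no floor. Members 2-fold lower in Ly6C-hi in WT, 3 when centred, numbered 1 with quantile normalisation and 0 as deposited, with lowess and with no floor, where 2 were higher. The shares over all genes used, 6.28% and 12.6%, are given for the centred values only. The counts under the other settings therefore cannot be set against other genes. With quantile normalisation limma called 1 member by genotype label, Rplp1. The floor alternatives change the members and the genes centred on, and with no floor most of the move came with the centring, which shifted each member by -0.66 for labelled KO against WT in Ly6C-hi. For the others the cause was not tested. In that comparison centring on the genes used removes a difference of -0.50 between their medians in the arrays, more in size than the members' 0.22 as deposited. Probe sets under about 6 were within the range of chemosensory receptor genes, which limits what dim members can show.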

Other observations

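Among genes outside the family, those whose 4 centred values lay closest to the median member (Euclidean distance over the 4 arrays) were Nsa2, at 0.14, and Eif3h, at 0.30. Nsa2, a factor in the assembly of the large subunit, read 8.72 (Ly6C-hi) and 9.08 (Ly6C-low) in the WT arrays and 8.998 and 9.09 in the arrays labelled KO. Eif3h, a subunit of initiation factor eIF3, read 8.66, 9.06, 9.05 and 9.26 in that order. The next were 6820431F20Rik, the proteasome subunit gene Psmb1, Capns1, Gm10029, Gm10012, Cycs, Ssr2 and Serbp1, at distances from 0.31 to 0.42. The distance includes the level of a probe set, so these genes share the brightness of the median member, and not all share its order of arrays. As deposited, Capns1, Cycs, Ssr2 and Serbp1 were lowest in labelled KO Ly6C-hi. Gm10012 was nearly level and highest in WT Ly6C-hi, at 9.04.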
